A study of Homo sapiens with 8 samples.

Results

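Insulin and the insulin-like growth factors (IGFs) signal through a small set of receptors, adaptors and secreted binding proteins, and 10 human genes of that set were followed here by name: the receptors INSR, IGF1R and IGF2R, the adaptors IRS1 and IRS2, and the binding proteins IGFBP2, IGFBP3, IGFBP4, IGFBP6 and IGFBP7. A RefSeq transcript row could be matched to 9 of the 10 genes, with 11 transcripts in all, out of 24812 transcript rows and 14528 named genes. IGFBP2 was not analysed here. The cells were SQ20B, an established human line from a head and neck squamous cell carcinoma. Polyadenylated RNA was sequenced from 4 samples grown in normoxia and from 4 samples kept at 0.5% O2 for 16 h (hypoxia). The line and medium were the same in all 8. The source label of the normoxia samples gives no oxygen level. The medium held serum, and no insulin or IGF treatment is named.

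The insulin receptor (INSR) and the IGF1 receptor (IGF1R) are related tyrosine kinases. When a ligand binds, they phosphorylate insulin receptor substrates (IRS1 and IRS2), docking proteins that recruit PI3K and so switch on AKT and mTOR. The IGF2 receptor (IGF2R) has no kinase: it takes IGF2 out of the medium for degradation and also carries lysosomal enzymes tagged with mannose 6-phosphate. The IGF binding proteins (IGFBPs) are secreted and hold IGFs away from IGF1R or release them locally, and IGFBP7 binds IGFs only weakly.

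Expression was given as FPKM, a count of sequenced fragments scaled by transcript length and by library size, as a single value per transcript for each condition over its 4 samples. Through the scaling by length, levels of different genes can be set side by side. The separate samples and their reads were not analysed here, and no replicate error, interval or test stands behind any difference below. In bulk RNA of a culture, fewer cells of a kind and less RNA per cell cannot be told apart. Changes were computed on the log2 scale after 0.1 was added to each FPKM, for genes that averaged at least 0.5 FPKM over the conditions, and a gene was called higher or lower in hypoxia when it differed by at least 1.5-fold. The added 0.1 understates the change of low genes. By this rule 9.95% of 12106 genes were called higher and 11.2% were called lower, and the median log2 change was -0.07. The FPKM columns summed to 536005 in normoxia and 458431 in hypoxia, and scaling them to equal sums moved the median of all genes to 0.15 and the counts from 1204 higher and 1361 lower to 2217 and 609. Centring on the median gave 1499 and 1060.

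The identity of the cells and the treatment were checked on marker genes. Of 9 squamous epithelial markers, a row was matched to all but KRT14. These 8 all passed the limit of 0.5 FPKM, with a summed FPKM of 593 in normoxia and 659 in hypoxia. KRT5, a keratin of basal squamous cells, carried most of that sum with 398 and 442 FPKM. The others did not all go the same way: ITGB4, an integrin of basal cells, was called higher (2.06 to 3.79 FPKM), KRT6A was called lower (5.10 to 3.26 FPKM), and DSG3 and SFN had log2 changes of -0.36 and -0.21. The part of these differences in the results below was not tested. Of 6 fibroblast markers, 2 were listed, at 0.175 FPKM together in normoxia and 0.210 in hypoxia. Of 4 endothelial markers, CDH5 had a row, at 4.78 and 2.83 FPKM, and of 5 leukocyte markers, CD68 and LYZ were, at 2.56 and 3.33 FPKM together. No row was matched to the 3 hepatocyte markers, and no listed marker stood at 0. CA9, a carbonic anhydrase induced by hypoxia, went from 0.694 to 21.6 FPKM, and NDRG1, ADM and VEGFA, also known hypoxia targets, had log2 changes of 5.58, 1.55 and 1.02.

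All 9 measured genes were above 0.5 FPKM in each condition. Of these, 5 (INSR, IGF1R, IGF2R, IRS2 and IGFBP3) were called higher in hypoxia and 0 were called lower, beside the 9.95% and 11.2% of all genes. The genes were chosen with earlier results of these data known, so these counts are a description and not a test. The median log2 change of the 9 genes was 0.72, and IRS1 was the only gene of the 9 below 0. All 3 receptors were called higher, as were 1 of the 2 adaptors and 1 of the 4 binding proteins. Counted by transcript, 6 of the 11 were called higher and 0 lower, beside 10.5% and 14.3% of 18190 transcripts. This count largely repeats the count by gene, since 7 of the genes have 1 transcript, and INSR enters it with 2. One of the INSR transcripts, NM_000208, passed the limit of 0.5 FPKM only through its hypoxia value. With a mean of at least 1 FPKM required, 5 of 9 transcripts were called higher, where 9.33% of all transcripts were. With 1 added in place of 0.1, IGF1R and IRS2 dropped below 1.5-fold and 3 genes were called, beside 5.94% of all genes called higher with that setting.

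**Figure D1:**
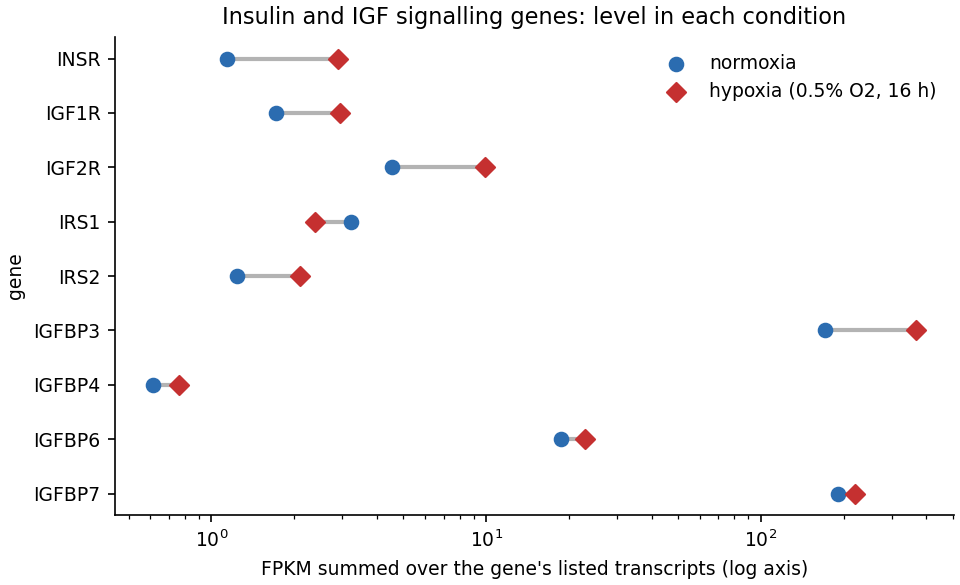
FPKM of each gene, summed over its listed transcripts, in normoxia (circles) and hypoxia (diamonds) on a log axis, 1 value per condition and no error bars. IGFBP3 and IGFBP7 lie at 171 FPKM or higher while the receptors and adaptors lie below 10, and IRS1 is the only gene whose hypoxia value is to the left.

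INSR binds insulin, and also IGF2 in its short form. It lies on chromosome 19 of hg19 (7112266 to 7294011). Its FPKM was 1.14 in normoxia against 2.89 in hypoxia, a log2 change of 1.27 and the largest of the 9 genes. Of all 12106 genes, 224 had a larger change. INSR stayed among the less abundant genes: 12.1% of genes were below it in normoxia and 26.1% in hypoxia.

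INSR was listed with 2 transcripts, which encode different receptors. NM_001079817 encodes the short isoform, known as IR-A, and NM_000208 the long isoform, IR-B, which keeps a small exon near the end of the part that binds ligand. That exon is exon 11 of the coding transcript in GENCODE on GRCh37, 36 bases or 12 codons at chr19:7150508-7150543 on the minus strand. The sequences below show the stretch by which the isoforms differ, 5′ to 3′ in the mRNA, with exon 11 in capitals and 20 bases of the neighbouring exons on either side in lower case.
INSR isoform B: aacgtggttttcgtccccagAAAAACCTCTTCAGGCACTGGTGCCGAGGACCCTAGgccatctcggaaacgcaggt
INSR isoform A: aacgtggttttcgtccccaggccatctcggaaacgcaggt

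The transcript with exon 11, NM_000208, had 0.396 FPKM in normoxia against 1.37 in hypoxia, a log2 change of 1.57. The transcript without it, NM_001079817, had 0.745 and 1.52 FPKM, a log2 change of 0.94. Both were called higher, NM_000208 having passed the limit of 0.5 FPKM only through its hypoxia value, and the form without exon 11 was the more abundant in each condition. The share of NM_000208 in the summed INSR FPKM was 34.7% in normoxia and 47.4% in hypoxia, so that the ratio of the long to the short form went from 0.531 to 0.901. This is a difference of 12.7 percentage points. Among 1737 genes with exactly 2 listed transcripts, each at 0.5 FPKM or more on average, the median difference was 2.52 points and 5.70% had a difference at least as large as that of INSR. Differences in share were larger at low levels: among the 247 such genes with a summed mean between 1 and 4 FPKM, where INSR lies, the median was 6.55 points and 20.6% reached that of INSR. The forms share the exons on either side of exon 11, and Cufflinks estimates how such shared reads divide between them.

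IGF1R, the main receptor for IGF1 and IGF2, lies on chromosome 15 (99192761 to 99507759) and was listed with 1 transcript, NM_000875. Its FPKM was 1.72 in normoxia against 2.94 in hypoxia, a log2 change of 0.74, and 778 genes had a larger change. In normoxia INSR stood at 0.662 times the level of IGF1R, and in hypoxia the ratio was 0.984, so that the receptors were close to level in hypoxia.

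IGF2R lies on chromosome 6 (160390131 to 160527583) with 1 transcript, NM_000876. It was the most abundant of the 3 receptors in each condition, with 4.55 FPKM in normoxia and 9.90 in hypoxia. The log2 change was 1.10, and 314 genes had a larger change. The ratio of IGF2R to IGF1R was 2.64 in normoxia and 3.37 in hypoxia. Together the receptors summed to 7.41 and 15.7 FPKM.

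**Figure D2:**
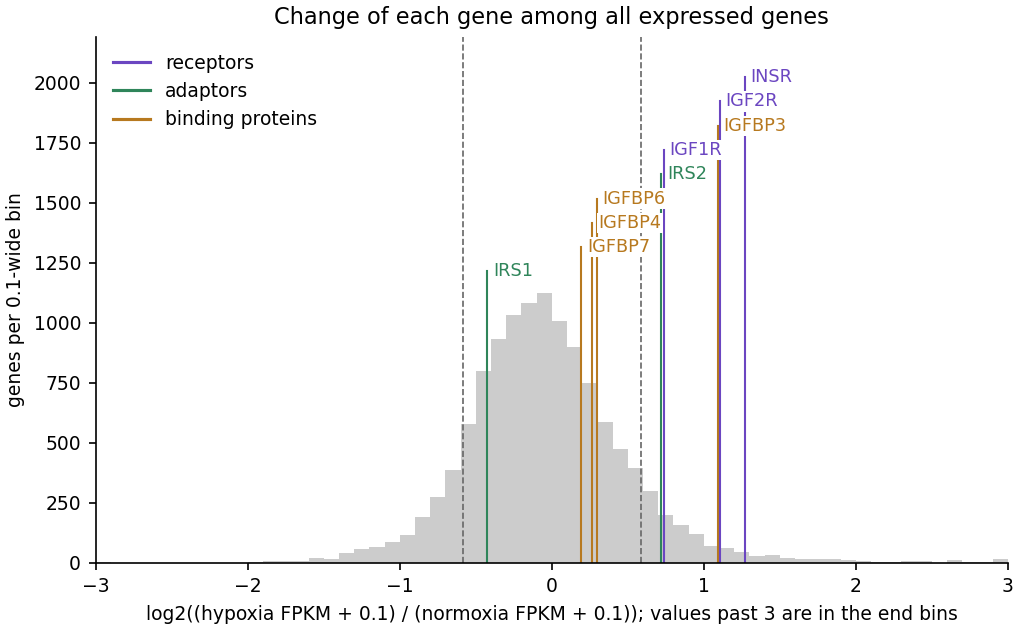
Log2 change of each of the 9 genes (vertical lines, coloured by role) over the distribution of the changes of the 12106 genes past the limit of 0.5 FPKM, in bins of 0.1, with dashed lines at 1.5-fold. INSR, IGF2R and IGFBP3 lie beyond 1 on the log2 scale, IRS2 and IGF1R lie just beyond the dashed line, and the other binding proteins and IRS1 lie between the dashed lines.

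IRS1 and IRS2 are both docking proteins that recruit PI3K but did not go the same way. IRS1, on chromosome 2 (227596033 to 227663506), had 3.23 FPKM in normoxia and 2.38 in hypoxia. Its log2 change of -0.42 lay within the 1.5-fold limit and was -0.21 after scaling to equal FPKM sums. IRS2, on chromosome 13 (110406184 to 110438914), had 1.24 and 2.11 FPKM, a log2 change of 0.72. The summed FPKM of the adaptors was 4.47 in normoxia and 4.49 in hypoxia, while the ratio of IRS1 to IRS2 went from 2.60 to 1.13. IRS1 remained the more abundant adaptor.

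IGFBP3 is the main carrier of IGFs in blood, and its gene lies on chromosome 7 (45951844 to 45960871). Its transcript NM_000598 had 171 FPKM in normoxia against 365 in hypoxia, a log2 change of 1.09, and 322 genes had a larger change. IGFBP3 was already abundant: it ranked 517th by level among 12106 genes in normoxia and 149th in hypoxia.

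IGFBP7, on chromosome 4 (listed locus 57845109 to 58071465), had 191 FPKM in normoxia against 219 in hypoxia, a log2 change of 0.20. NM_001553 carried 99.2% of the summed FPKM of IGFBP7 in each condition, and NM_001253835 had 1.57 and 1.83 FPKM. Of the exon bases of IGFBP7 in GENCODE, 13.5% overlap exons of POLR2B on the opposite strand, and whether reads were assigned by strand is not given in the sources used here. IGFBP6, which prefers IGF2 over IGF1, lies on chromosome 12 (53491436 to 53496128) and had 18.7 and 23.0 FPKM, a log2 change of 0.29. IGFBP4, on chromosome 17 (38599676 to 38613982), was the lowest of the 9 genes, at 0.615 and 0.761 FPKM with a log2 change of 0.27. These 3 binding proteins were all higher in hypoxia by less than 1.5-fold. The log2 change of IGFBP4 was 0.07 with quantile normalization and 0.12 with 1 added in place of 0.1.

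The order of the binding proteins by level differed between the conditions. In normoxia IGFBP7 stood above IGFBP3, with an IGFBP3 to IGFBP7 ratio of 0.897, and in hypoxia IGFBP3 stood above IGFBP7 with a ratio of 1.67. Over the 5 IGFBP genes with a row (IGFBP1, IGFBP3, IGFBP4, IGFBP6 and IGFBP7), the summed FPKM was 382 in normoxia and 608 in hypoxia. IGFBP3 made up 44.8% of that sum in normoxia and 60.0% in hypoxia, and IGFBP7 made up 50.0% and 36.0%. IGFBP6 held 4.89% and 3.78%, and IGFBP4 and IGFBP1 held under 1% together.

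**Figure D3:**
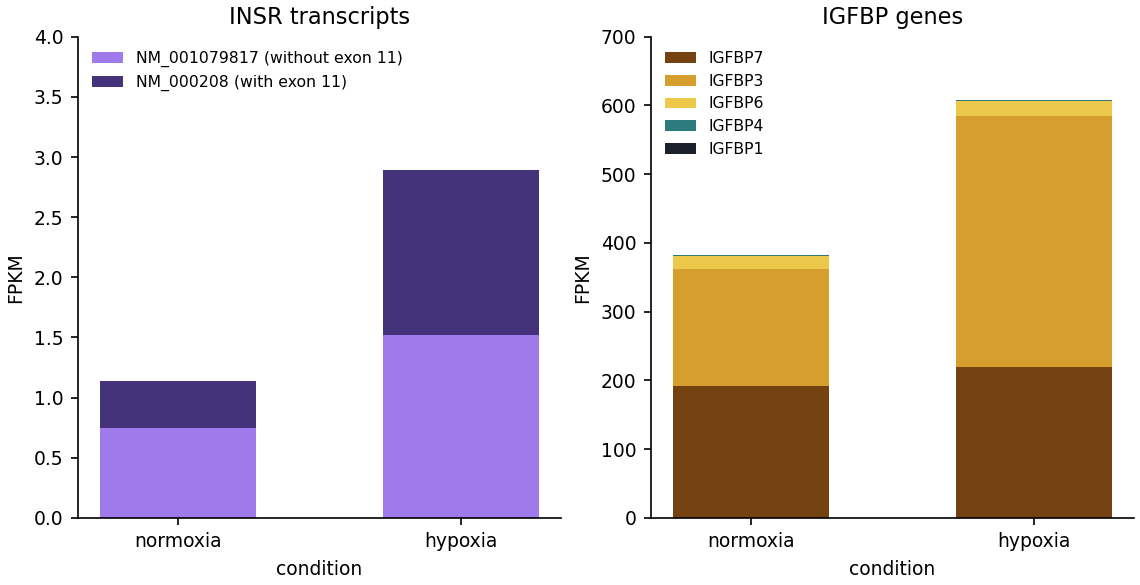
Stacked FPKM in each condition for the INSR transcripts with and without exon 11 (left) and for the 5 listed IGFBP genes (right), 1 value per condition and no error bars. The part with exon 11 goes from 34.7% to 47.4% of the INSR bar, and IGFBP3 goes from 44.8% to 60.0% of the IGFBP bar.

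Promoter sequence was searched for ACGTG and GCGTG, the core letters that hypoxia-inducible factors bind, on both strands of the 300 bases from 250 before to 50 after each gene's start (RefSeq, GRCh38.p14). These letters are short and common: among 35116 promoters, 21.4% held ACGTG, 36.5% held GCGTG and 48.4% held at least 1 of them. A promoter was matched for 8 of the genes, and 4 of the 8 held either motif: IGF1R, IGF2R, IRS1 and IGFBP3. INSR, IRS2, IGFBP4 and IGFBP6 held neither in this window. Of the 5 genes called higher, IGF1R, IGF2R and IGFBP3 held a match, and INSR and IRS2 did not, beside the 48.4% of all promoters. IRS1, the only gene with a change below 0, held each motif at 1 place, with its ACGTG inside CACGTG. IGF1R held ACGTG at 1 place and GCGTG at 4. A link between the motifs and the changes was not tested.

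The promoters of IGF2R and IGFBP3, which were higher by similar amounts, are shown for the contrast in their motifs, 5′ to 3′ on the strand of the gene, with the matches in capitals. In IGF2R, ACGTG was found at 3 places, each time inside the palindrome CACGTG, which reads ACGTG on both strands and starts 132, 74 and 28 bases before the gene start. Of all promoters, 0.487% held ACGTG at 3 or more places, 7.26% held CACGTG and 0.094% held CACGTG at 3 or more. The stretch is chr6:159968940-159969069, plus strand. IGFBP3 held no ACGTG and GCGTG at 3 places, starting 209, 167 and 55 bases before the start, the middle one on the other strand as CACGC. Of all promoters, 4.00% held GCGTG at 3 or more places. The stretch is chr7:45921313-45921491, minus strand.
IGF2R promoter: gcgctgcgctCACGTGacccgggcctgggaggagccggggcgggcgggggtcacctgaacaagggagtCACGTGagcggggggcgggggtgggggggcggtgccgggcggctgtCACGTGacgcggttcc
IGFBP3 promoter: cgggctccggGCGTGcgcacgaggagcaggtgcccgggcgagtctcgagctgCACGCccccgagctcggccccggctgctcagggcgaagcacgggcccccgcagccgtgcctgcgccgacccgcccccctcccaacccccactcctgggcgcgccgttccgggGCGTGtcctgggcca

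A list of 83 other genes of the pathway was examined beside these 9. It too was chosen with earlier results of these data known, so its counts are a description and not a test. A row was matched to 69 of them, and 67 passed the limit of 0.5 FPKM. Of the 67, 13 were called higher and 2 lower, beside 9.95% and 11.2% of all genes, and their median log2 change was 0.15. With the columns scaled to equal sums, 24 were called higher and 1 lower, where 18.3% and 5.03% of all genes were. With 1 added in place of 0.1, 7 were called higher, where 5.94% of all genes were. ADAM12 and DEPTOR, among the 13, passed the limit of 0.5 FPKM only through their hypoxia values. With a mean of at least 1 FPKM required, 10 of 58 were called higher and 2 lower, where 8.89% and 11.8% of all genes were.

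Of the 4 ligand genes (INS, INS-IGF2, IGF1 and IGF2), only IGF2 had a row, with FPKM values of 0.110 (normoxia) and 0.133 (hypoxia), below the limit. No row was matched to the other ligands. The genes around the binding proteins held the largest difference of the list. STC1 and STC2, stanniocalcins that inhibit the pappalysin proteases, went from 2.09 to 11.1 FPKM (log2 change 2.35) and from 18.9 to 41.2 FPKM (1.12). ADAM12, a metalloprotease that can cut IGFBP3, went from 0.452 to 0.862 FPKM (0.80) and passed the limit through its hypoxia value. HTRA1, a secreted serine protease, had 10.4 and 11.3 FPKM. The pappalysin genes PAPPA and PAPPA2 were not analysed here. IGF2BP1, which binds IGF2 mRNA, was called lower, from 4.57 to 2.70 FPKM (-0.74), while IGF2BP2 and IGF2BP3 had log2 changes of 0.08 and -0.12, of which the first was -0.15 with the most abundant transcript alone and the second 0.10 with equal FPKM sums and 0.02 with quantile normalization.

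None of the 7 other genes of the mannose 6-phosphate pathway was called, where 9.95% of all genes were called higher and 11.2% lower. Their log2 changes went from -0.29 for NAGPA to 0.53 for GGA2, and that of IGF2R was 1.10. M6PR, the small receptor for the same tag, was far more abundant than IGF2R, with 121 FPKM in normoxia and a log2 change of -0.28.

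Among the adaptors and relatives of the receptors, 3 of 6 measured genes were called higher, beside 9.95% of all genes. They were DOK4 (1.70 to 2.84 FPKM, log2 change 0.71), a docking protein related to the IRS proteins; SOS1 (4.64 to 7.47, 0.68), which activates RAS; and GAB1 (2.21 to 3.40, 0.60), a docking protein. GAB1 fell below the limit of 0.585 on the log2 scale with quantile normalization (0.540) and with 1 added to each FPKM (0.457). DOK4 fell below it with 1 added (0.510) but not with quantile normalization (0.631). SOS1 stayed past it with quantile normalization (0.665) and with 1 added (0.587). GRB2, the adaptor that brings SOS1 to phosphorylated receptors, had 31.2 and 21.4 FPKM, a log2 change of -0.54 within the limit. Of 9 measured inhibitors of the receptors and adaptors, the phosphatase PTPRF was called higher, beside 9.95% of all genes (3.49 to 6.16 FPKM, 0.80).

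Most of the core kinases were within the limit, as were most of all genes. Of 10 PI3K and AKT genes, the catalytic subunit PIK3CB was called higher, beside 9.95% of all genes, from 5.24 to 8.67 FPKM (log2 change 0.72), and the regulatory subunit PIK3R1 lay just below the limit at 0.57. AKT1 and AKT2 had log2 changes of -0.42 and -0.28. None of the 7 lipid and AKT phosphatases was called, where 9.95% of all genes were called higher and 11.2% lower. Their log2 changes went from -0.15 for PHLPP2 (0.07 with equal FPKM sums) to 0.43 for PHLPP1.

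In the mTOR and TSC list, 2 of 14 measured genes were called higher and 1 lower, shares near the 9.95% and 11.2% of all genes. DDIT4 (also REDD1), which restrains mTOR complex 1 in hypoxia through TSC2, had 53.7 FPKM in normoxia against 195 in hypoxia, a log2 change of 1.86. DEPTOR, an inhibitor that binds mTOR, had 0.357 and 0.649 FPKM (0.71) and passed the limit through its hypoxia value. RPS6KB2, a kinase downstream of mTOR complex 1, was called lower, from 6.74 to 3.61 FPKM (-0.88), while its relative RPS6KB1 had a log2 change of -0.31 and MTOR one of 0.11.

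Downstream of AKT, 3 of 6 measured genes were called higher, beside 9.95% of all genes. FOXO1 and FOXO4, transcription factors that AKT keeps out of the nucleus, had log2 changes of 0.65 (1.81 to 2.89 FPKM) and 0.67 (0.560 to 0.950 FPKM). Both fell below the limit of 0.585 on the log2 scale with quantile normalization (0.578 and 0.471). They also did so with 1 added to each FPKM (0.470 and 0.322), and with equal FPKM sums they were 0.867 and 0.875. TBC1D4 (also AS160), an AKT substrate that holds back glucose transporter vesicles, went from 10.1 to 17.3 FPKM (0.76). It stayed past the limit with quantile normalization (0.840) and with 1 added to each FPKM (0.713). FOXO3 had 8.72 and 12.7 FPKM, a log2 change of 0.53 within the limit.

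**Figure D4:**
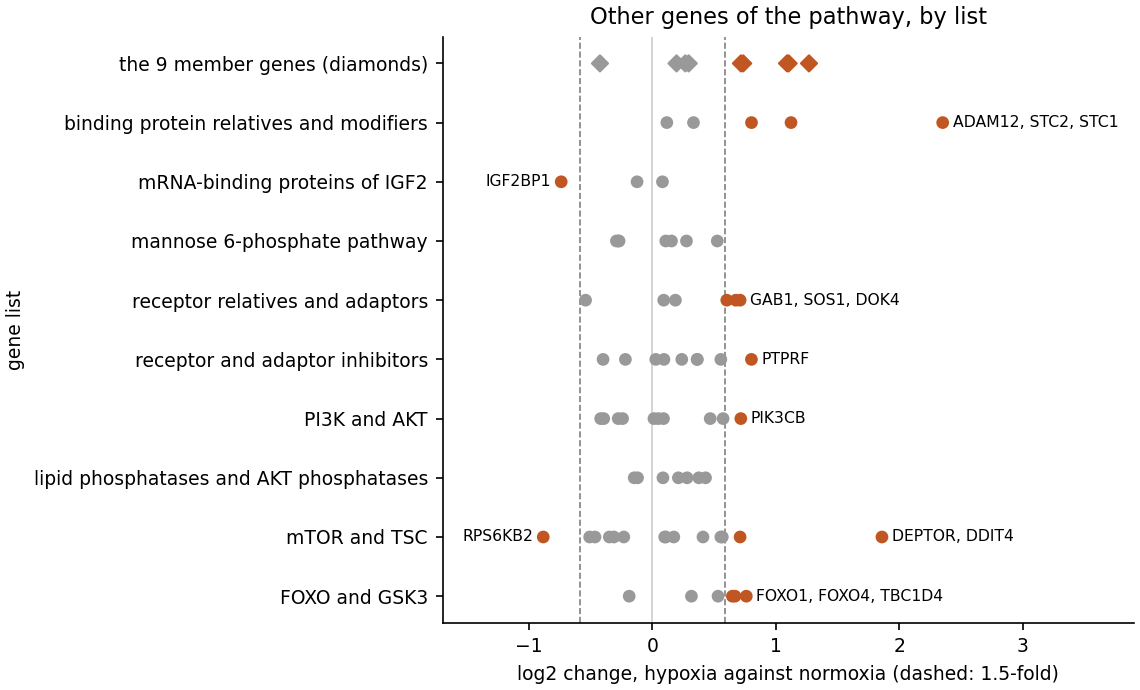
Log2 change of the 67 other pathway genes (points) by list and of the 9 named genes (diamonds, top row), with called genes in orange and labelled, and dashed lines at 1.5-fold. STC1 at 2.35 and DDIT4 at 1.86 lie farthest to the right, and RPS6KB2 at -0.88 farthest to the left. No point of the mannose 6-phosphate list or the phosphatase list passes a dashed line, where 9.95% of all genes were called higher and 11.2% lower.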

How the data were processed

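Polyadenylated RNA of SQ20B cells was sequenced from 4 normoxia and 4 hypoxia samples with a stranded kit. Per the submitters' processing notes and the methods, the authors aligned the reads with STAR 2.3.0.1 to RefSeq hg19 and ran the Cufflinks suite 2.1.1 with standard parameters. The deposited table gives FPKM values as made by the authors, 1 per transcript and condition. It also holds the authors' fold changes, test statistics, p-values and q-values, which were not used. The depth of each sample was not analysed here, and no intervals are given. No floor is stated. When the higher of the 2 values was taken for each listed transcript, the lowest of these was 0.0998 FPKM.

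Samples were grouped by their source label, which tells normoxia from hypoxia, since the other labels repeat the hypoxia treatment on all 8. Transcripts were named through RefSeq accessions of GRCh38.p14 (24293 of 24812 rows), used for names only, and FPKM was summed per gene. Loci are those of the table (hg19), with the start counted from 1, and can extend past a gene. Changes are log2((hypoxia FPKM + 0.1)/(normoxia FPKM + 0.1)) for features with a mean of at least 0.5 FPKM, and calls need 1.5-fold. A limma fit, planned for the case that values of single samples were at hand, was not run, so no p-value is given. Exon overlaps and INSR exon 11 come from GENCODE v44 lifted to GRCh37, the sequence of hg19, and promoters from RefSeq. The named genes are all members, and pathway genes past 1.5-fold, and other pathway genes were given for comparison after their values were seen. The isoform share comparison and the palindrome were added after the data were seen. The members and lists were chosen with earlier results of these data known. The arithmetic of the calls was checked on simulated data with known fold changes and no replicate error. Alternatives were other pseudocounts, filters, scalings, folds and ways to sum transcripts. Scripts ran in Python 3.11.15 (matplotlib 3.10.9, pandas 2.3.3, numpy 2.4.6).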

Additional observations from a re-analysis of the deposited data

How the results depend on the processing

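The count of the 9 genes called higher was 5 and that called lower 0, and the median log2 change of all genes moved from -0.07 to 0.15 with equal FPKM sums, the largest shift of any scaling. With a pseudocount of 1, the counts called higher were 3 genes, 3 member transcripts and 7 of the other pathway genes, where 5.94% of all genes and 5.78% of all transcripts were. At 2-fold they were 3, 3 and 3, with 0 of the other pathway genes lower, where 3.21% of genes and 3.70% of transcripts were higher and 2.62% of genes lower. At a limit of 0.32 on the log2 scale in place of 0.58, 1 member gene and its transcript (IRS1) were called lower, and 26 of the other pathway genes were higher and 9 lower, where 20.6% and 27.8% of all genes were. Equal FPKM sums gave 24 and 1 for the other pathway genes. The pseudocount of 0.01, the filters, centring, quantile normalization, coding transcripts alone and the most abundant transcript alone left each of these counts within 1.5 times its reported value. No direction turned for any of the 9 member genes or the 15 called pathway genes in these settings. The genes behind a count could differ. With quantile normalization 11 of the other pathway genes were called higher and 3 lower, where 10% and 9.69% of all genes were. Genes not called in the main setting came past the limit there, while GAB1, DEPTOR, FOXO1 and FOXO4 fell below it. Centring gave 19 higher, where 12.4% of all genes were. With a pseudocount of 1, GAB1, DEPTOR, FOXO1, FOXO4, ADAM12 and DOK4 fell below the limit. Of the other pathway genes named, IGF2BP3 turned from -0.12 to 0.10 with equal FPKM sums and to 0.02 with quantile normalization, PHLPP2 from -0.15 to 0.07 with equal sums, and IGF2BP2 from 0.08 to -0.15 with the most abundant transcript alone. INSR ranged from 0.86 to 1.49 on the log2 scale, IGF1R from 0.53 to 0.95, IGF2R from 0.97 to 1.33, IRS1 from -0.48 to -0.21, IRS2 from 0.47 to 0.93 and IGFBP3 from 1.09 to 1.37. The ranges were 0.07 to 0.47 for IGFBP4, 0.28 to 0.52 for IGFBP6 and 0.19 to 0.47 for IGFBP7.

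No paired analysis was possible because the table gives 1 value per condition, and for the same reason leaving out a replicate was not run. None of these differences was set against a spread between samples.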

Other observations

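Of the listed transcripts of IGF2BP1, NM_006546 had 4.56 FPKM in normoxia and 2.25 in hypoxia, while NM_001160423, which averaged below the limit of 0.5 FPKM, had 0.0144 and 0.449 FPKM. Of the transcripts of PIK3R1, which encodes regulatory subunits of PI3K of different lengths, NM_181524 was called higher, with 0.726 and 1.44 FPKM, and NM_181523, the most abundant, lay within the 1.5-fold limit with 4.51 and 6.24 FPKM. The other listed transcripts of PIK3R1 averaged below 0.5 FPKM. The spread of these values between samples was not analysed here.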
